A study of Mus musculus with 4 samples.

Results

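The alveolar macrophages of the mouse lung were examined in 2 single-cell libraries, in which each barcode stands for 1 droplet called as a cell and each UMI for 1 captured mRNA molecule. A barcode was taken as a member when it held at least 500 UMIs, at most 20% of them mitochondrial, with at least 4 UMIs summed over Siglecf, Krt79, Plet1 and Marco, at least 5 UMIs of Lyz2, and no UMI of Cd3e, Cd79a or Cdh5. This gave 1136 members among 19427 lung barcodes within the limits, and 30943 barcodes in all 4 libraries of the series. Members were thus chosen by the UMIs of the 4 marker genes, of Lyz2 and of the 3 excluded genes, and levels of these genes are a description.

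The TNF+ library came from female C57BL/6 mice of a transgenic line that carries 1 copy of a human TNF transgene, and the TNF- library from littermates without it. All mice were 4 months old and carried no other modification. Viable sorted cells of 3 to 5 mice were pooled for each lung library, so each genotype has 1 library and no difference between the genotypes has a replicate check. Counting used a mouse reference without the human transgene, so its mRNA was not measured.

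Alveolar macrophages live in the air spaces, where they take up inhaled particles, dead cells and spent surfactant, the lipid film that keeps the alveoli open. They depend on GM-CSF and TGF-beta signalling and on the transcription factor encoded by Pparg, which controls lipid handling. They display the lectin Siglec-F, encoded by Siglecf, and secrete the chitinase-like protein encoded by Chil3. TNF acts through the receptors encoded by Tnfrsf1a and Tnfrsf1b and activates NF-kB, a family of transcription factors that drives cytokine, chemokine and acute-phase genes. Macrophages also make complement: C3 is the protein on which all activation routes meet, factor B (Cfb) builds the alternative pathway, and C1q starts the classical pathway.

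The label was first checked against markers within the members. In the TNF- lung, 310 of 322 members held at least 20 Chil3 UMIs and fewer than 20 UMIs of C1qa, C1qb and C1qc together, and the other 12 were low in both. In the TNF+ lung, 519 of 814 members were high in Chil3 and low in C1q, 183 were the reverse, 98 were low in both and 14 were high in both. By these limits the name held for nearly all TNF- members but for fewer of the TNF+ members. The first set is called Chil3-high and the second C1q-high. Both limits of 20 UMIs were chosen after the values were seen. They are raw counts, so a barcode with few UMIs can fall below both whatever its cell type. Of the 98 TNF+ members low in both, 27 held fewer than 5000 UMIs. Few cells lay near the limits: 7 TNF- and 47 TNF+ members held 10 to 39 Chil3 UMIs, and 0 and 24 held 10 to 39 C1q UMIs.

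**Figure D1:**
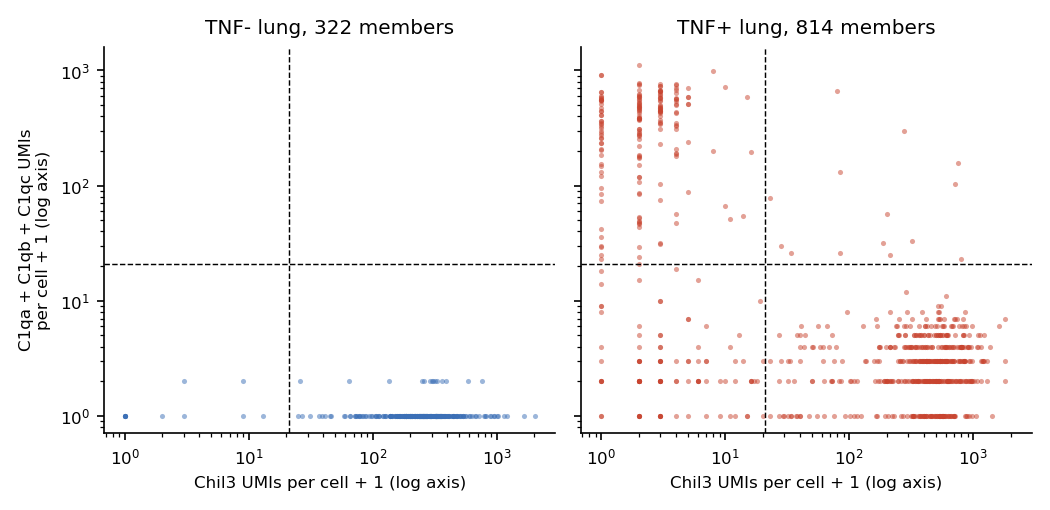
Each point is 1 member, placed by its Chil3 UMIs plus 1 (x axis, log) and its summed C1qa, C1qb and C1qc UMIs plus 1 (y axis, log), in the TNF- lung (left, 322 members) and the TNF+ lung (right, 814 members). Dashed lines mark 20 UMIs. The upper left quadrant, with high C1q and low Chil3, is empty in the TNF- lung and holds 183 members in the TNF+ lung.

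Most C1q-high members met the rule through Marco alone. Of these 183 cells, 175 would not have reached 4 UMIs without Marco, a scavenger receptor that other macrophages can also express. In all, 2 TNF- and 235 TNF+ members (28.9%) were members through Marco. Just inside the limit, 6 TNF- and 52 TNF+ members had a sum of exactly 4 UMIs, and just outside it 9 and 94 barcodes with enough Lyz2 had a sum of 3. T cell barcodes, which should lack these genes, held 0.278 of the 4-gene UMIs each in the TNF- lung and 1.18 in the TNF+ lung. The zero requirement on Cd3e, Cd79a and Cdh5 left out 155 barcodes (32.5%) and 279 barcodes (25.5%) that passed on the other genes.

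The C1q-high members held less Siglecf, Krt79 and Pparg than the Chil3-high members. Levels were summed over the cells of a set and scaled to CPM, the UMIs of a gene per 1000000 UMIs of the set. Siglecf was at 2.18 CPM in C1q-high members, while TNF- and TNF+ Chil3-high members held 139 and 121 CPM. Krt79, a keratin, was at 3.96 CPM against 461 and 482 CPM, and Pparg at 35.6 CPM against 549 and 407 CPM. Marco, through which most C1q-high members met the rule, was at 1157 CPM in them and at 1086 CPM in TNF+ Chil3-high members. C1qa stood at 6116 CPM in C1q-high members and 23.0 CPM in TNF+ Chil3-high members. Apoe, which encodes a lipid carrier, was at 21183 against 144 CPM, and Cxcl13, which draws in B cells, at 10069 against 36.6 CPM. Folr2, a folate receptor gene, was at 181 against 0.479 CPM. Lung barcodes with C1q and Lyz2 but no UMI of the 4 marker genes held C1qa at 3109 CPM in the TNF+ library. Siglecf, Krt79 and Marco are genes of the rule and C1q UMIs divided the sets, so their levels here are a description. Pparg, Apoe, Cxcl13 and Folr2 chose neither the members nor the sets. The C1q-high members are described by their genes and not called alveolar macrophages.

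The members low in both sets of genes were a mixture. In the TNF- lung the 12 cells held Scgb1a1, a club cell product, at 143952 CPM and Sftpc, the surfactant protein of alveolar type 2 cells, at 26953 CPM, but the medians were 8.5 and 11 UMIs per cell, so a few cells carried these values. They also held the dendritic cell genes Flt3 at 156 CPM and Xcr1 at 145 CPM. In the TNF+ lung the 98 cells held Sftpc at 28066 CPM (a mean of 594.9 and a median of 5 UMIs per cell), Cd74 at 7594 CPM and Plet1 at 323 CPM, and 27.6% of them had fewer than 5000 UMIs. Siglecf was at 6.68 and 9.15 CPM in these cells. Results below are therefore given for all members and for the Chil3-high members, 829 cells in all.

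The members were deep. Their median was 25699 UMIs in the TNF- lung and 33781.5 in the TNF+ lung, against 9959 and 10210 in T cell barcodes of the same libraries, which held 96120328 and 155989523 UMIs in all. Chil3-high members had medians of 25683 and 37320 UMIs. More than 5000 genes were detected in 237 TNF- members (73.6%) and 613 TNF+ members (75.3%). The study kept barcodes with 200 to 5000 genes, a limit that removes these cells. The lung libraries shared 21 barcode sequences and no member barcode occurred as a member in both.

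Members made up 3.86% of TNF- lung barcodes (322 of 8342, 95% interval 3.46 to 4.30) and 7.34% of TNF+ lung barcodes (814 of 11085, 6.86 to 7.84). The difference was 3.48 percentage points (2.84 to 4.12). This difference depended on Marco. Without Marco in the sum, the shares were 3.84% and 5.22%, a difference of 1.39 points (0.798 to 1.97). Chil3-high members made up 3.72% (3.32 to 4.14) and 4.68% (4.30 to 5.09), 0.966 points apart (0.395 to 1.53). The libraries differed in other cells: 2071 TNF- and 194 TNF+ barcodes held endothelial Cdh5 at 2 or more UMIs with no Cd3e or Cd79a. With these left out of the total, an alternative chosen after seeing the data, members made up 5.13% and 7.47%, 2.34 points apart (1.59 to 3.07). For Chil3-high members the shares were then 4.94% (4.42 to 5.51) in TNF- and 4.77% (4.37 to 5.18) in TNF+ mice. TNF+ minus TNF- came to -0.18 points (-0.86 to 0.48), so the direction for them rested on the endothelial barcodes. Within the gene limits of the study, 1.21% of TNF- and 2.19% of TNF+ barcodes were members. All intervals cover counting error only.

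**Figure D2:**
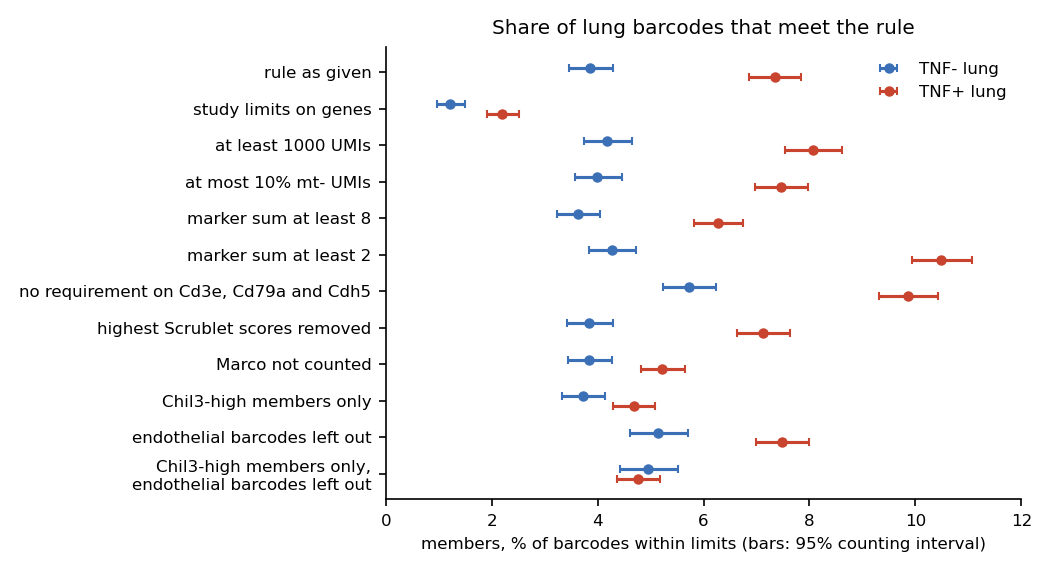
Members as a percentage of lung barcodes within the limits (x axis) in the TNF- (blue) and TNF+ (red) library under the rule as given and 11 other settings (y axis), with 95% counting intervals. The TNF+ share is the higher in each setting but the last, Chil3-high members with endothelial barcodes left out, where the shares are 4.94% and 4.77%.

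Levels of alveolar macrophage genes in Chil3-high members are given first for the genes that chose these cells, as a description. Plet1, a surface protein of these cells, stood at 1012 CPM in TNF- cells against 1034 CPM in TNF+ cells (log2 ratio of TNF+ over TNF- 0.03, 95% counting interval -0.01 to 0.07). Krt79 had a log2 ratio of 0.07 (0.01 to 0.12), and Siglecf -0.21 (-0.31 to -0.10). Chil3 itself, which chose this set, was at 11313 and 13361 CPM. Genes outside the rule followed. The eosinophil-associated ribonuclease Ear1 was at 693 and 539 CPM (-0.36, -0.41 to -0.32), and its paralogue Ear2 at 1516 and 1233 CPM. Reads of these near-identical copies can be split between them, so single Ear values are uncertain. Pparg was at 549 and 407 CPM (-0.43, -0.48 to -0.38). In all members the same ratios were lower, at -0.59 for Siglecf, -0.77 for Ear1 and -0.76 for Pparg in the presence of the 183 C1q-high cells.

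Single cells spread widely around these levels. Siglecf had a median of 3 UMIs per cell in TNF- Chil3-high members, from 0.9 at the 10th to 7 at the 90th percentile, and a median of 4 (0 to 9) in TNF+ ones. Chil3 ran from 108.7 through 256.5 to 479.1 UMIs across TNF- cells, and from 99 through 457 to 843.6 UMIs across TNF+ cells. With each cell thinned to 2000 UMIs, Siglecf was detected in 21.9% and 21.2% of Chil3-high members and in 0% and 0.357% of T cell barcodes. Plet1 was detected in 82.6% and 82.2%. Both are genes of the rule, so these values describe the cells it chose.

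A few genes of the programme did differ by at least 2-fold. Of the 20 alveolar macrophage genes listed, 19 had at least 50 UMIs over both Chil3-high sets, 2 were at least 2-fold higher and 1 was at least 2-fold lower in the TNF+ set. The higher genes were Fabp4, a fatty acid carrier, at 98.7 and 288 CPM (1.54, 1.44 to 1.65), and Car4, a carbonic anhydrase, at 461 and 1012 CPM (1.13, 1.08 to 1.18). Cidec, which encodes a lipid droplet protein, was lower, at 308 and 99.6 CPM (-1.63, -1.71 to -1.54). Cidec was detected in 45.5% of TNF- and 20% of TNF+ Chil3-high members at 2000 UMIs.

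Genes that set the members apart from the rest of the lung are given as a description, since they come from the cells that the rule chose. Ranked by the lower of the ratios in the TNF- and TNF+ libraries, the first 12 were Cidec, Kcnn3, Kcnip4, Mkx, Plet1, Gal, Siglecf, Ear1, Fabp1, Chil3, Erc2 and Krt79. Cidec was higher than in the other barcodes by 4.20 on the log2 scale in the TNF- and 3.65 in the TNF+ lung, and the potassium channel gene Kcnn3 by 3.65 and 3.61. Within this set the neuropeptide gene Gal differed most between genotypes, at 68.5 and 10.7 CPM in Chil3-high members (-2.67, -2.91 to -2.44) and with detection in 11.6% and 2.75% of cells at 2000 UMIs. Kcnip4, which encodes a channel-interacting protein and spans chromosome 5 from 48389502 to 49524907, was at 4729 and 2635 CPM (-0.84). Kcnn3 differed little, at 341 and 299 CPM.

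**Figure D3:**
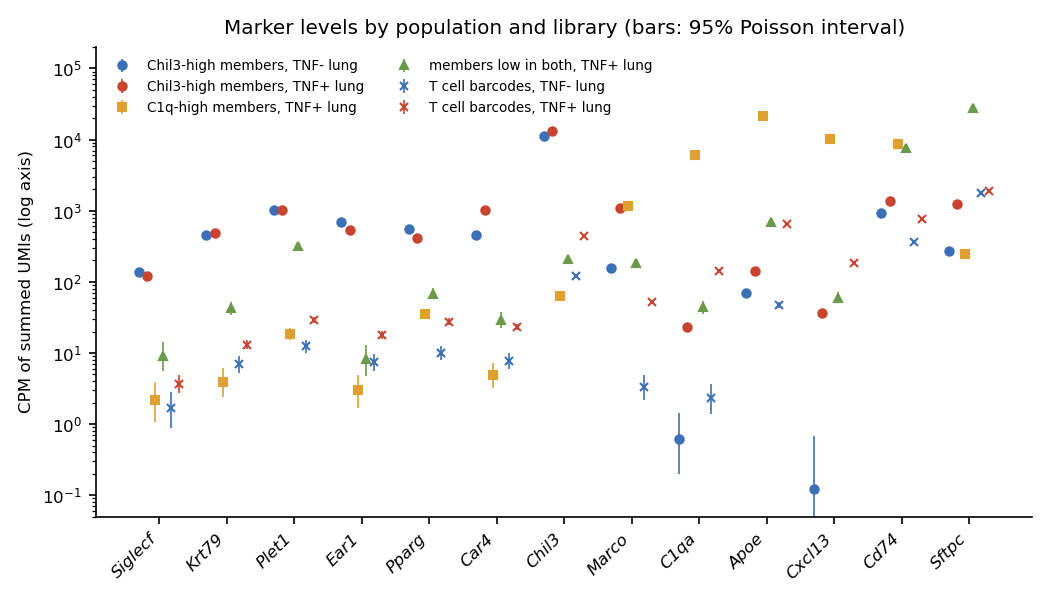
CPM of summed UMIs (y axis, log) of 13 genes (x axis) in Chil3-high members of the TNF- (blue circles) and TNF+ lung (red circles), C1q-high members (orange squares), TNF+ members low in both (green triangles) and T cell barcodes (crosses), with 95% Poisson intervals; a level of 0 is not drawn. C1q-high members reach 2.18 CPM of Siglecf and 6116 CPM of C1qa, while both Chil3-high sets lie above 120 CPM of Siglecf.

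Over all genes with at least 50 UMIs, 1059 of 12769 (8.29%) were at least 2-fold higher and 976 (7.64%) at least 2-fold lower in the TNF+ members, as CPM of the summed cells. In Chil3-high members these were 509 of 11513 (4.42%) and 840 (7.3%). The median log2 ratio of all genes was -0.15 in all members and -0.21 in Chil3-high members, and ratios below are to be read against it. Scaling to the median gene gave 1231 higher (9.64%) and 736 lower (5.76%) genes in all members. Some UMIs in any droplet come from free RNA, and the lowest mean per barcode among T, B and endothelial barcodes of the library was taken as its level for each gene. Among the 11513 genes, 396 (3.44%) were 2-fold higher and 754 (6.55%) 2-fold lower while also at least 2 times above that level where they were higher. These percentages are the background against which each list is read.

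Complement genes are the subject of the study. C3 (chromosome 17, 57203970 to 57228136) stood at 66.7 CPM in TNF- Chil3-high members against 443 CPM in TNF+ ones, a log2 ratio of 2.73 (2.61 to 2.86). Single cells held a median of 1 UMI of C3 (0 to 3.1 from the 10th to the 90th percentile) in TNF- cells, against 13 (3 to 32) in TNF+ ones. At 2000 UMIs per cell, C3 was detected in 9.68% (6.62 to 13.5) and 52.4% (47.9 to 56.8) of them, against 0.582% and 9.71% of T cell barcodes. C3 was thus higher in TNF+ cells than in TNF- cells and than in the T cells beside them. Without thinning, 61.6% and 96.9% of the cells held a C3 UMI. In all members the log2 ratio was 3.44, and the C1q-high members were at 1675 CPM.

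Cfb (chromosome 17, 34856374 to 34862518) followed the same direction and was seen mainly in the Chil3-high members. TNF- cells held 102 CPM against 655 CPM for TNF+ cells (2.69, 2.59 to 2.79), with 2.67 and 23.7 UMIs per cell against 0.287 in TNF+ T cell barcodes. Detection at 2000 UMIs was 8.71% and 61.8%, and 1.96% in TNF+ T cell barcodes. C1q-high members were at 145 CPM of Cfb.

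C1q genes were used to divide the members, so their levels in the divided sets are a description. In all members C1qa went from 0.698 to 1212 CPM, a log2 ratio of 10.76. In Chil3-high members, which held fewer than 20 C1q UMIs by definition, C1qa was at 0.614 and 23.0 CPM. The mean was 0.834 UMIs per TNF+ Chil3-high cell and 1.72 per TNF+ T cell barcode.

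Other complement genes moved less or lay lower. C2, the classical pathway relative of Cfb, was at 1.72 and 13.0 CPM (2.92, 2.14 to 3.81), from 14 and 244 UMIs. Properdin (Cfp), which stabilises the alternative convertase, was at 62.4 and 117 CPM (0.91). Of the C5a receptors, C5ar2 was lower, at 38.2 and 19.0 CPM (-1.0, -1.23 to -0.78), and C5ar1 was short of 2-fold at 200 and 129 CPM (-0.63, -0.73 to -0.54). The inhibitor gene Serping1 was at 12.6 and 1.12 CPM, and was detected in 0.645% and 0.582% of TNF- Chil3-high members and T cell barcodes alike. Of 21 complement genes, 18 were tested in Chil3-high members, and 8 were higher and 2 lower. Of the 8, 3 were also above the free RNA level, and so were the 2 lower genes. The list's median was 0.70, and 2.0 in all members, where 12 of 19 were higher.

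Members held a larger share of the lung's C3 and Cfb UMIs in the TNF+ library. For C3 this was 5.05% (4.66 to 5.47) of 11560 TNF- UMIs, against 25.9% (25.6 to 26.2) of 75424 TNF+ UMIs, of which Chil3-high members held 4.70% and 11.05%. For Cfb it was 38.4% (36.3 to 40.5) of 2167 and 56.6% (56.0 to 57.2) of 24702 UMIs, with 38.2% and 49.9% in Chil3-high members. For C1qa it was 0.103% and 32.6%, and only 0.0856% and 0.439% in Chil3-high members. Members held 39.1% of C5ar1 UMIs in the TNF- and 23.7% in the TNF+ lung, and 18.0% and 8.94% of those of mouse Tnf. Members also held 9.0% and 17.0% of all UMIs of barcodes within the limits, and Chil3-high members 8.53% and 12.1%. The Chil3-high share of C3 UMIs was thus below their share of all UMIs in each library, and their share of Cfb UMIs above it.

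Among the lists, chemokine genes had the most genes past 2-fold and above the free RNA level in Chil3-high members. Of 24 genes, 20 were tested, 12 were at least 2-fold higher and 2 lower, and 11 of the 12 higher genes were above that level, with a median of 1.22. Ccl9 (chromosome 11, 83572919 to 83578636), an attractant of myeloid cells, was at 46.8 and 462 CPM (3.30, 3.15 to 3.45). Its cells held a median of 0 UMIs (0 to 2) in TNF- cells against 10 (0 to 41) in TNF+ ones, and 4.84% and 44.7% were positive at 2000 UMIs, against 3.57% of TNF+ T cell barcodes. Cxcl16, a membrane-bound attractant of T cells, was at 9.82 and 76.6 CPM (2.96) with detection in 1.29% and 12.9%.

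The neutrophil attractants were also higher. Cxcl1 was at 1.60 and 13.8 CPM (3.11, 2.32 to 4.04), Cxcl2 at 56.1 and 193 CPM (1.78, 1.64 to 1.92) and Cxcl3 at 48.0 and 200.4 CPM (2.06, 1.91 to 2.21). Cxcl3 was detected at 2000 UMIs in 0.323% and 16.5% of cells and in 0.535% of TNF+ T cell barcodes. Ccl6, abundant in both sets, was at 2837 and 5675 CPM (1.0, 0.98 to 1.02). Ccl17, an attractant of T helper cells, rested on 5 and 1056 UMIs (6.51, 5.29 to 8.14) and was detected in 5.10% of TNF+ cells. Members low in both genes held Ccl17 at 419 and 581 CPM. Ccl3 and Ccl4 each had a log2 ratio of 1.15, while the receptor genes Cxcr2 (-1.44) and Ccr1 (-0.23) were not higher. Cxcl13 was at 36.6 CPM in TNF+ Chil3-high members, and its detection, 10.4%, was below the 15.6% of T cell barcodes.

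NF-kB target genes showed a mixed picture. Of 26 genes, 23 were tested in Chil3-high members, 11 were at least 2-fold higher and 1 lower, 7 of the 11 were above the free RNA level, and the median was 0.94. In all members 16 of 25 were higher, with a median of 1.57. Sod2, a mitochondrial superoxide dismutase, was at 113 and 309 CPM (1.45, 1.35 to 1.55) and was detected in 16.1% and 45.5% of cells at 2000 UMIs, against 16.1% of TNF+ T cell barcodes. Il1b was at 50.6 and 119 CPM (1.23) with detection in 7.10% and 17.8%, and the lectin Clec4e at 22.5 and 66.2 CPM (1.56) with 2.58% and 11.4%.

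The feedback inhibitors of the pathway lay on the same side. Nfkbia was at 145 and 320 CPM (1.15, 1.06 to 1.24), Nfkbie at 9.95 and 26.8 CPM (1.43, 1.09 to 1.79) and Tnip1 at 45.2 and 136 CPM (1.59, 1.43 to 1.75), and Tnfaip3 was short of 2-fold at 50.7 and 84.0 CPM (0.73). T cells express these genes too, so T cell detection is no background for them. Il6 rested on 6 and 85 UMIs (2.62). Lcn2, an acute-phase iron binder, had a log2 ratio of 4.09, yet 2.75% of TNF+ cells against 5.35% of T cell barcodes held it at 2000 UMIs. Mouse Tnf was short of 2-fold, at 66.4 and 37.9 CPM (-0.81, -0.97 to -0.65), with 1.75 and 1.37 UMIs per cell. The maturation marker Cd83 was at 46.0 and 16.7 CPM (-1.46).

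The TNF receptors and the proteins that pass on their signal differed little. Tnfrsf1a was at 71.8 and 73.3 CPM (0.03, -0.11 to 0.17) and Tnfrsf1b at 147 and 215 CPM (0.55, 0.46 to 0.64). Of 16 genes in this list, 1 was higher and 1 lower in Chil3-high members, and the median was -0.14. The higher gene was Ripk3, a kinase of necroptosis, from 40 and 189 UMIs (1.03, 0.53 to 1.56). The lower gene was Timp3 (-4.89), detected in 2.26% of TNF- cells and 2.33% of T cell barcodes at 2000 UMIs. Its mean in TNF- cells was at least 2 times above the free RNA level. Timp3 was also among the most variable genes of TNF- Chil3-high members, with a mean of 0.081 UMIs per cell at 2000 UMIs. Few cells carried its UMIs at this depth, and their source was not tested. The protease gene Adam17, which releases TNF from the cell surface, was at 136 and 188 CPM (0.47).

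Promoters of a few genes, picked by hand and not by a rule, are shown to let the letters be read beside the values. They do not stand for the genes that differ, whose motif shares are given below. Each is the 250 bases before the RefSeq start on GRCm38.p6, 5′ to 3′ on the strand of the gene. Capitals mark matches to the NF-kB consensus on either strand or, in C3, to TTGCNNAA, which lies within the binding consensus of C/EBP factors. The promoters are Ccl9 at chr11:83578637-83578886 (minus strand), H2-M2 at chr17:37483555-37483804 (minus), Nfkbie at chr17:45555450-45555699 (plus), C3 at chr17:57228137-57228386 (minus) and Marco at chr1:120505025-120505274 (minus).
Ccl9: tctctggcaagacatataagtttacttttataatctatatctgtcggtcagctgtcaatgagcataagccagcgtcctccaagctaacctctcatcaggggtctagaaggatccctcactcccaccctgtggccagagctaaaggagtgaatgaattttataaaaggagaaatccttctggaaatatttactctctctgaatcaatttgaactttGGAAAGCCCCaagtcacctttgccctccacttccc
H2-M2: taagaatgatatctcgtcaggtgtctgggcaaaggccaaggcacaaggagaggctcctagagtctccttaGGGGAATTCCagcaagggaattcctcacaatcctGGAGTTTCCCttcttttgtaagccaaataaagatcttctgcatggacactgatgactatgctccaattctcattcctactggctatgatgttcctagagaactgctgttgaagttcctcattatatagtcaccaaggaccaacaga
Nfkbie: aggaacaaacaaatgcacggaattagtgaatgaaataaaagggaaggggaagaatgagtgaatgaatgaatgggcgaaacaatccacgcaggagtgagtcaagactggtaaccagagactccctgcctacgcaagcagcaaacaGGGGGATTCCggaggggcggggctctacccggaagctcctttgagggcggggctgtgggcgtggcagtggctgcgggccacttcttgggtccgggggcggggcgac
C3: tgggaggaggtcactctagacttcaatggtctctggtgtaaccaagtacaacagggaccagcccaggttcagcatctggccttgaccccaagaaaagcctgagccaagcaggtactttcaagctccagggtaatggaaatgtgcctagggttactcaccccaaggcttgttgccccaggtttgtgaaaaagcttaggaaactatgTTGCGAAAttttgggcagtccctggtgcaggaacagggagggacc
Marco: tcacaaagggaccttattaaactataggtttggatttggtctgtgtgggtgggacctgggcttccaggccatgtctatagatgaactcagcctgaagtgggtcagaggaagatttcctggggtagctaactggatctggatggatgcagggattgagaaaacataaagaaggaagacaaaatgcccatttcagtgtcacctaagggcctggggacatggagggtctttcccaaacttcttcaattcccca
The NF-kB match lay 35 to 26 bases before the start of Ccl9 and 106 to 97 bases before that of Nfkbie, and H2-M2 held matches at 180 to 171 and 146 to 137 bases. In C3 the TTGCNNAA match lay 45 to 38 bases before the start, and the window of Marco held neither motif.

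Matches were counted over gene groups. A gene with several promoters was counted when any of them held a match. The NF-kB consensus occurred in 7.25% of 32851 RefSeq promoters. By gene, it occurred in 8.23% of all 27025 genes with a promoter and in 10.3% of the 9060 tested ones. Among genes at least 2-fold higher in TNF+ Chil3-high members, 59 of 378 (15.6%) held it, and among those at least 2-fold lower 61 of 607 (10.0%). It occurred in 6 of the 9 higher chemokine genes with a promoter, against 7 of all 15 tested, and in 5 of the 10 higher NF-kB targets, against 8 of all 19 tested. TTGCNNAA occurred in 9.56% of all promoters. By gene, it occurred in 10.8% of all genes with a promoter, 9.12% of tested genes, 14.8% of the higher and 8.57% of the lower genes. A match describes these letters and not binding, and the groups overlap in their genes.

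Lipid genes differed in both directions. The list of 26 had 6 genes at least 2-fold higher and 2 lower in Chil3-high members, 5 and 2 of them above the free RNA level, with a median of 0.17. Fabp5, a fatty acid carrier, was at 318 and 1231 CPM (1.95, 1.89 to 2.01), with medians of 4 UMIs (0 to 17) and 32 (5 to 99.2) per cell. Lpcat2, which remodels phospholipids and makes platelet-activating factor, was at 11.5 and 110 CPM (3.26, 2.96 to 3.57) and was detected in 0.968% and 18.8% of cells at 2000 UMIs. Sqle and Scd2, of sterol and fatty acid synthesis, had log2 ratios of 1.10 and 1.19. Scd1 was at 15.3 and 86.0 CPM (2.49), but its detection differed little, 4.52% and 5.49%.

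The fatty acid receptor Cd36 was lower in the TNF+ cells. It was at 340 and 60.6 CPM (-2.49, -2.59 to -2.39), with a median of 6 UMIs (0 to 21) in TNF- and 0 (0 to 6) in TNF+ Chil3-high members, and was detected in 38.4% and 8.43% at 2000 UMIs against 2.67% of TNF+ T cell barcodes. Dgat2, of triglyceride synthesis, was at 50.8 and 21.7 CPM (-1.23), and the cholesterol exporter Abcg1 at 1572 and 934 CPM (-0.75). Apoe in Chil3-high members (144 CPM in the TNF+ lung) was detected in 20.8% of cells against 34.1% of T cell barcodes. It was among the most variable genes of the TNF+ ones (variance over mean 12.8), and the source of its UMIs was not tested.

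GM-CSF receptor genes were on the higher side of the median. Csf2rb was at 279 and 435 CPM (0.64, 0.58 to 0.71), Csf2rb2 at 51.1 and 101 CPM (0.98, 0.83 to 1.14) and Csf2ra at 165 and 226 CPM (0.45). Of the 17 tested genes for GM-CSF, TGF-beta and myeloid regulators, 1 was at least 2-fold higher and 2 lower in Chil3-high members, with a median of -0.09, and in all members 4 of 18 were higher and none lower by 2-fold. The lower ones were Cebpa, a myeloid transcription factor, at 198 and 98.5 CPM (-1.01, -1.11 to -0.91), and Maf (-1.04). Only 1 of these 2 was above the free RNA level, as was the 1 higher gene.

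Uptake receptors were partly higher. Marco, which the rule used, was at 157 and 1086 CPM in Chil3-high members (2.79, 2.71 to 2.87), with medians of 0 UMIs (0 to 13.1) and 23 (0 to 100.2). It was detected at 2000 UMIs in 17.1% and 62.5%, against 0.582% and 2.85% of T cell barcodes. Only 13 TNF+ Chil3-high members passed the rule through Marco. Among 17 tested receptors of uptake, 4 were at least 2-fold higher, none was lower by 2-fold, 3 of the 4 were above the free RNA level, and the median was 0.21. The 3 were the scavenger receptors Msr1 at 18.0 and 70.0 CPM (1.96) and Colec12 at 64.0 and 197 CPM (1.63), and the inhibitory Fc receptor Fcgr2b at 94.2 and 203 CPM (1.11). The efferocytosis receptors Axl (-0.08) and Mertk (0.12) and the Fc receptor Fcgr4 (0.14) differed little.

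Lysosomal and iron lists had medians above that of all genes, with few genes past 2-fold. The median of 18 lysosomal genes was 0.48, with 2 at least 2-fold higher, 1 of them above the free RNA level. This was Cd63, of late endosomes, at 142 and 409 CPM (1.53, 1.44 to 1.62), and the other was the lysozyme gene Lyz1, at 10.7 and 68.2 CPM (2.67). Reads of Lyz1 may be shared with its close copy Lyz2, a rule gene, which was at 11418 and 34603 CPM (1.60). The ferritin genes Fth1 (8139 and 15089 CPM, 0.89) and Ftl1 (5282 and 8274 CPM, 0.65) did not reach 2-fold, and the transferrin receptor Tfrc was at 22.2 and 8.77 CPM (-1.34). Haptoglobin (Hp) was at 3.81 and 177 CPM (5.54, 5.03 to 6.10) and was detected in 0.968% and 19.4% of cells at 2000 UMIs, against 9.71% of TNF+ T cell barcodes. Of 15 tested iron and redox genes, 4 were higher and 1 lower, with a median of 0.59.

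Genes of recruited macrophages and of antigen presentation were read against the C1q-high members. The recruited macrophage list had 14 of 22 genes at least 2-fold higher in all members and 12 of 18 in Chil3-high members, but only 4 of those 12 were above the free RNA level. They included osteopontin (Spp1), at 363 and 1351 CPM (1.90, 1.84 to 1.95) with detection in 34.8% and 67.6% at 2000 UMIs, Trem2 at 37.7 and 98.6 CPM (1.39) and the elastase gene Mmp12 at 13.6 and 86.9 CPM (2.67). The monocyte genes Ly6c2 and Ccr2 were at 4.73 and 17.4 CPM in TNF+ Chil3-high members, with means of 0.171 and 0.632 UMIs per cell. MHC class II genes were at least 2-fold higher for 5 of 12 in all members and for 1 of 12 in Chil3-high members. Cd74 was at 924 and 1353 CPM (0.55) there, and at 8686 CPM in C1q-high members. Interferon response genes numbered 9 higher of 22 in all members and 3 of 19 in Chil3-high members, and their median in the latter was 0.11.

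Proliferation, glycolysis and immediate early genes were not higher. Among 20 cell cycle genes, none passed 2-fold in either direction in Chil3-high members, with a median of -0.51. Mki67 was at 72.4 and 46.6 CPM (-0.64) and was detected in 6.45% and 5.10% of cells at 2000 UMIs, against 3.06% and 3.65% of T cell barcodes. None of 15 glycolysis and hypoxia genes passed 2-fold (median -0.03). Of 15 immediate early genes, 4 were at least 2-fold lower: Egr1, at 86.3 and 17.3 CPM (-2.32, -2.51 to -2.13), Jun, at 219 and 96.3 CPM (-1.18), and the heat shock genes Hspa1a and Hspa1b. Such genes also respond to tissue handling. Their share in T cell barcodes moved as well for Egr1, from 14.1% to 8.29%, and the part of handling was not tested.

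**Figure D4:**
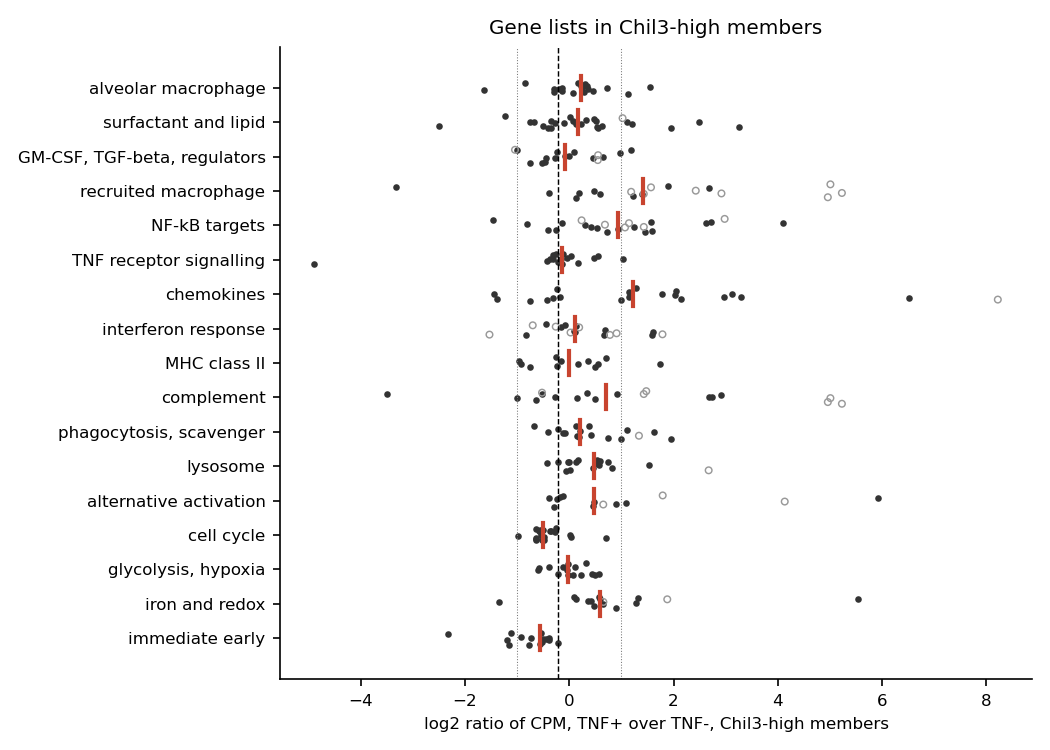
Log2 ratio of CPM, TNF+ over TNF- (x axis), of each tested gene of 17 lists (y axis) in Chil3-high members. Filled points lie at least 2 times above the free RNA level in the library where the gene is higher, open points do not, red bars are list medians, the dashed line is the median of all genes (-0.21), and dotted lines mark 2-fold. Chemokines have a median of 1.22 and cell cycle genes of -0.51.

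The genes with the highest ratios in all members were mostly those of the C1q-high members: Cxcl13, Ccl8, C1qc, C1qa, C1qb, Colq, Pla2g2d, Ccl12 and St18, with Cdh6, H2-M2 and Adgre4. Only H2-M2 and Adgre4 of these were among the 12 highest in Chil3-high members, a list taken after the values were seen. Adgre4, an adhesion receptor of macrophages, rested on 6 and 2238 UMIs (7.34, 6.21 to 8.78) and was detected at 2000 UMIs in 0% and 17.5%, against 5.17% of TNF+ T cell barcodes. H2-M2, a non-classical class I gene, rested on 4 and 1336 UMIs (7.18, 5.82 to 9.05), with 0% and 7.65% against 0.980%. The matrix protease gene Mmp14 was at 2.82 and 172 CPM (5.93, 5.34 to 6.59), with a median of 0 (0 to 0) and 5 UMIs (0 to 15) per cell and detection in 0% and 24.7%, against 2.23%. A count of 0 among 310 thinned cells allows, by the floor of 3 counts, up to 0.968% of cells with a UMI at this depth, and without thinning a few UMIs of these genes were present. Itih4, Chil1 and Lcn2 were at detection close to or below that of T cell barcodes. Members are deeper than T cell barcodes, so at 2000 UMIs equal detection does not mean equal UMIs per cell.

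At the other end, the long gene Dnah11 (chromosome 12, 117877982 to 118199043), which encodes a dynein chain, was at 125 and 3.30 CPM (-5.25, -5.64 to -4.88). TNF- Chil3-high members held a median of 1 UMI (0 to 8), and 18.7% and 0.392% were positive at 2000 UMIs, against 0.291% and 0.178% of T cell barcodes. Ppp1r9a was likewise detected in 9.35% and 0.588%, against 0% and 0.535%. Both genes were at the T cell level in the TNF+ set. The haemoglobin gene Hbb-bs was at 984 and 15.4 CPM (-6.00, -6.17 to -5.83), yet it was detected in 9.35% of TNF- Chil3-high members and 11.1% of T cell barcodes. The stromal gene Dcn (-5.67) was detected in 0.645% and 0.582%, and Mgp (-3.86) in 9.35% and 7.86%. Detection of these genes was thus near that of T cell barcodes, but the means of Hbb-bs and Dcn were not. Hbb-bs was at 25.8 UMIs per TNF- Chil3-high member and 0.872 per T cell barcode, and Dcn at 0.923 and 0.0291. Few cells carried these UMIs: 23 TNF- Chil3-high members held 3 or more of Hbb-bs and 2 of Dcn.

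**Figure D5:**
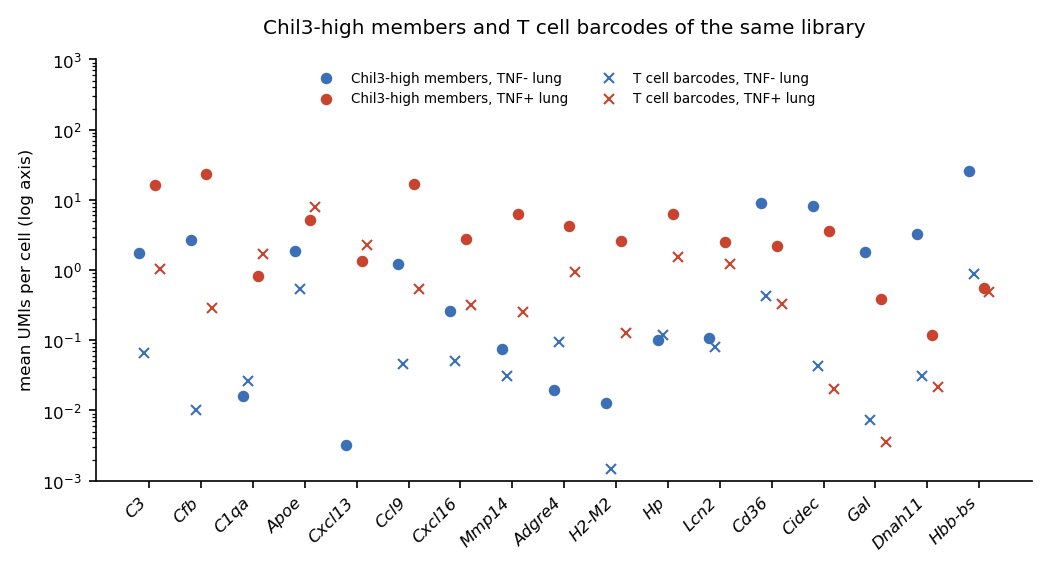
Mean UMIs per cell (y axis, log) of 17 genes (x axis) in Chil3-high members (circles) and T cell barcodes (crosses) of the TNF- (blue) and TNF+ (red) lung; a mean of 0 is not drawn. C3, Cfb, Ccl9 and Mmp14 in TNF+ members lie above T cell barcodes, at 16.1 UMIs against 1.04 for C3, while Apoe, Cxcl13 and C1qa lie below, the last limited by the definition of the set.

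UMIs of marker genes of other cell types were present in the members. The 25 markers of other types summed to a median of 22 UMIs per TNF- and 19 per TNF+ Chil3-high member and to means of 59.6 and 63.7. Sftpc was at 7.10 and 44.4 UMIs per Chil3-high cell as a mean and at a median of 7 in both. The neutrophil gene S100a8 was at 0.674 and 5.25 UMIs per cell, against 0.691 and 1.08 in T cell barcodes, and was detected at 2000 UMIs in 3.87% and 17.6%. The most variable genes were led by such markers: Scgb1a1, Hbb-bs and Sftpc among TNF- members, and Sftpc among TNF+ members, where Apoe, a gene of the C1q-high members, also ranked high. The part of these marker UMIs in the differences above was not tested. Whether members expressed some of these genes themselves was not tested either. Removing the highest Scrublet scores, a measure of likely doublets, took out 23 and 95 members. Of 12407 genes then tested, 1152 (9.29%) were higher and 832 (6.71%) lower.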

How the data were processed

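Droplet-based single-cell 3' libraries were made from lung cells of TNF- and TNF+ mice, 1 for each genotype. The files that the authors deposited hold raw UMI counts for each gene and barcode, made with Cell Ranger 7.0.1 on mm10 (GRCm38), per the file headers, the labels and the submitters' processing notes. Intronic reads are counted in that version and only barcodes called as cells are held. Of 32285 genes in the matrices, 32158 had a position in the annotation used. The lung libraries held 96120328 and 155989523 UMIs.

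UMIs were summed over the cells of a set and given as CPM, since cells are not replicates. Ratios carry conditional binomial, shares exact Clopper-Pearson, differences Newcombe and CPM exact Poisson intervals at 95%, all for counting error only. They hold neither variation between mice nor between libraries, so no p-value is given. Genes with at least 50 UMIs over both libraries were compared against a 2-fold difference. A count of 0 was set to a floor of 3 UMIs. Shares of cells positive for a gene were taken after thinning to 2000 UMIs per cell, and 1 TNF- and 32 TNF+ members were shallower and left out. Thinning keeps a smaller part of a deeper cell. Detection in members and in T cell barcodes thus compares shares of RNA and not UMIs per droplet. Reference barcodes were T (Cd3e of at least 2 UMIs), B and endothelial, without markers of the others. Doublets were not removed, and Scrublet scores (0.8% of cells per 1000 barcodes) served as an alternative. The automatic threshold of Scrublet called 1.99% and 2.00% of barcodes.

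Members and gene lists were chosen with earlier results of these data known. Named genes were the 7 marker genes and Lyz2, C3, Cfb and C1qa, and in each list up to 6 genes of largest ratio and 2 of most UMIs. Further named genes were the 12 highest and 12 lowest ratios with at least 200 UMIs, the 12 highest against other lung barcodes and the 10 most variable per library. Other list genes, and the 12 highest and lowest in Chil3-high members, were named after their values were seen. The scripts were tested on simulated data and used Python 3.11.15, numpy 2.4.6, scipy 1.17.1, pandas 2.3.3, scanpy 1.11.5 and matplotlib 3.10.9. Promoter sequences were read from RefSeq on GRCm38.p6. Alternatives changed the limits on genes, UMIs and mitochondrial share, the marker sum, scaling, cell weighting, thinning, free RNA, doublets and the minimum of UMIs. The synovial libraries were used only for a check of the rule. Values of 1 listed gene are not reported here.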

Additional observations from a re-analysis of the deposited data

Results flagged for a closer look

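The rule for alveolar macrophages also picked barcodes outside the lung. In the synovium of the same genotypes, 24 of 3498 TNF+ barcodes (0.686%, exact 95% interval 0.440 to 1.019) and 1 of 6638 TNF- barcodes passed it. The 24 cells held no UMI of Siglecf, Krt79, Ear1 or Car4, but 440 UMIs of Plet1, 351 of Marco and 606 of C1qa, and 30 of Chil3. These synovial cells took part in no comparison above. Their markers are those of the rule and not of the alveolar macrophage as a whole, and no cause was tested.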

How the results depend on the processing

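Median-of-ratios scaling moves all genes alike, by 0.15 on the log2 scale. The genes that changed sign, against their ratio in all members, were Scd1 (-0.52), Mgp (1.11) and Sftpa1 (-2.19) under the study's limits on genes, Cyp2f2 (1.27) with a marker sum of at least 8, and Cenpf (0.28) and Mgp (0.62) with the highest Scrublet scores removed. Maf changed sign with Marco not counted (-0.91), in Chil3-high members (-1.04) and in those with at least 10000 UMIs (-1.06). Apoe (-8.24) and Nfkbiz (-1.30) changed sign in Chil3-high members with free RNA subtracted. The cause was not tested. The settings on Marco, on Chil3-high members and on endothelial barcodes were chosen after seeing the data.

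The shares of members moved with the rule. They were 1.21% and 2.19% (0.976 points apart) under the study's limits, and 5.72% and 9.86% (4.14 points) without the requirement on Cd3e, Cd79a and Cdh5. The TNF+ share was 8.06% with at least 1000 UMIs, 6.27% (2.65 points) with a marker sum of at least 8, 10.5% (6.22 points) with at least 2, 5.22% (1.39 points) with Marco not counted and 4.68% (0.966 points) in Chil3-high members. With endothelial barcodes left out of the total, the shares were 5.13% and 7.47% (2.34 points), and in Chil3-high members 4.94% and 4.77% (-0.18 points), which reversed the direction, since the TNF- total loses more barcodes. Under the study's limits 656 of 7653 genes (8.57%) were at least 2-fold higher, against 8.29% under the main setting. After thinning it was 383 of 6163 (6.21%), and with at least 200 UMIs 604 of 9856 (6.13%). In Chil3-high members it was 509 of 11513 (4.42%), and 569 of 10451 (5.44%) there with free RNA subtracted. With at least 10000 UMIs there it was 505 of 11492 (4.39%). Genes at least 2-fold lower were 7.64% under the main setting and 323 of 6163 (5.24%) after thinning. They were 1512 of 14779 (10.2%) with at least 20 UMIs and 436 of 9856 (4.42%) with at least 200. Removing barcodes with 3 or more UMIs of other cell types kept 1 TNF- and 3 TNF+ members and left 31 genes, 6 higher and 3 lower, so nothing is read from it.

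Shares of C3 UMIs in TNF- members were 2.09% under the study's limits and 4.61% with a marker sum of at least 8. For C3 in the TNF+ lung they were 10.5%, 22.4%, 27.0% with Scrublet, 14.3% with Marco not counted and 11.05% in Chil3-high members, in this order of settings. For Cfb they were 14.1% and, with Scrublet, 43.6% in the TNF- lung, and 21.8%, 54.6%, 58.0%, 52.8% and 49.9% in the TNF+ lung. For C1qa they were 0% under the study's limits in the TNF- lung, and 23.8%, 27.9%, 34.6%, 1.47% and 0.439% in the TNF+ lung. No paired analysis was possible because each genotype has 1 library, and leaving out a replicate was not possible either.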
